A study of Mus musculus with 31 samples.

Results

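The MHC class II genes and their regulator were followed through 31 single cells of mouse lung. The 9 members, of 47069 genes in the matrices, were found by their gene symbols: H2-Aa, H2-Ab1, H2-Eb1, H2-DMa, H2-DMb1, H2-DMb2, H2-Oa, Cd74 and Ciita. Each matched 1 row. The cells came from the right lung lobes of 10 week old Csf1r-GFP mice on a B6 background, taken 7 days after a sham thoracotomy, in which the chest is opened. The sort label reads CD45+, CSF1R-GFP+, F4/80+ and Ly6G, with no sign after Ly6G. Csf1r-GFP is a reporter that marks cells using the promoter of the macrophage growth factor receptor. Cells were captured on a Fluidigm C1 chip and their polyA RNA was amplified with SMARTer chemistry without molecular identifiers. No label ties a cell to an animal and the 31 cells share every condition, so they were treated as 1 sample and no comparison below has a test. The intervals given cover counting error over cells only.

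The cells were described as a whole and within those that held Lyz2, the lysozyme gene of macrophages and monocytes, at 1000 FPKM or more. FPKM scales the fragments of a gene by its transcript length and by the size of the library, so levels can be set side by side between genes. Lyz2 reached that level in 20 cells, called Lyz2-high here, and stayed under it in 11. The cells just inside the limit were C7 and D4, at 1229 and 4075 FPKM, and those just outside were D10 and E5, at 553 and 485 FPKM. The Lyz2-high cells had 521492 to 4059833 expected counts each (median 1591648), and the other 11 cells had 120835 to 1592301 (median 413337). Nuclear protein-coding genes took 87.4% to 95.6% of the counts in 21 libraries, which were the 20 Lyz2-high cells and F11. They took 32.8% to 61.6% in the other 10 libraries, which stood apart in this measure, so results over all 31 cells are given beside those over the 20. Of the general myeloid genes, Tyrobp, Fcer1g and Csf1r were each present, at 1 FPKM or more, in 20 of 20 Lyz2-high cells. In the other 11 cells they were present in 5, 3 and 7 cells.

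MHC class II molecules present peptides from the endosome to CD4+ T cells. An alpha and a beta chain (I-A, from H2-Aa and H2-Ab1; I-E, from an H2-Ea product and H2-Eb1) assemble on the invariant chain Cd74, which blocks the groove and steers the complex to the endosome. There H2-DM, made of H2-DMa with H2-DMb1 or H2-DMb2, exchanges the last piece of the invariant chain for peptide, and H2-O, made of H2-Oa and H2-Ob, restrains H2-DM. Ciita is the co-activator of these genes: it binds no DNA itself and sits on factors of the RFX, CREB and NF-Y families at a conserved X box and Y box upstream of each gene. In lung, dendritic cells and part of the macrophages carry much class II, whereas classical monocytes carry little.

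The X box and Y box can be read in the promoters of the members, which are shown because these boxes are where Ciita acts. RefSeq windows of build GRCm38.p6, which run from 250 bases before to 50 bases after the gene start, were found for 6 of the 9 members and for H2-Ob. H2-Ab1, Cd74 and Ciita were not among them. An X-box-like motif, the letters AAC, 2 free bases (N) and then ATGATG, and the Y-box core GATTGG were searched on both strands, and no match of one overlapped the other. The letters of the first motif were chosen after these promoters were read. The sequences are the 150 bases before the gene start, written 5′ to 3′ on the strand of the gene, and capitals mark every match of either motif on either strand.
H2-Eb1 (chr17:34305717-34305866, plus strand): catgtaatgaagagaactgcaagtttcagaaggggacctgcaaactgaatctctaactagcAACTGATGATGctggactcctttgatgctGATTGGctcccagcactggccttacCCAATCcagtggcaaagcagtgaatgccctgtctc
H2-DMb1 (chr17:34153041-34153190, plus strand): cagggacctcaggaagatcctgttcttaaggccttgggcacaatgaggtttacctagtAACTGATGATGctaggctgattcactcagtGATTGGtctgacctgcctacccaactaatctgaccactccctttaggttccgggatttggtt
H2-DMb2 (chr17:34145099-34145248, plus strand): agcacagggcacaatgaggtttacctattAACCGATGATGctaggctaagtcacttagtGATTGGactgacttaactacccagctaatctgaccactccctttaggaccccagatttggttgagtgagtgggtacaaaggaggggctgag
H2-Ob (chr17:34238755-34238904, plus strand): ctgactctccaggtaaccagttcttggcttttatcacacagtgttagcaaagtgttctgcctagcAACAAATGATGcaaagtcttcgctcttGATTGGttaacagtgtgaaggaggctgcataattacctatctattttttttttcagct
H2-Aa (chr17:34287824-34287973, minus strand): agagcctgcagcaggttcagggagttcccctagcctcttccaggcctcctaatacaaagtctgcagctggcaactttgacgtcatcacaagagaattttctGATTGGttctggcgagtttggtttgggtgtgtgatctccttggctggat
The X-box-like motif was found in 45 of 32851 promoter windows of the same length (0.137%), and the Y-box core in 5292 of them (16.1%). The X-box-like motif followed by the Y-box core on the same strand, 15 to 45 bases apart, was found in 4 windows (0.0122%), which were those of H2-Eb1, H2-DMb1, H2-DMb2 and H2-Ob. The gaps between the 2 motifs were 18 bases in H2-Eb1, 19 in H2-DMb1, 19 in H2-DMb2 and 16 in H2-Ob. The X-box-like motif began 89 bases before the gene start in H2-Eb1 and 121 bases before it in H2-DMb2. H2-Aa had the Y-box core 49 bases before its start and no match of the X-box-like letters in this window. Of the 2 motifs searched, H2-Oa also had only the Y-box core, and H2-DMa had neither in its first window and the Y-box core in its second. A match is a description of the letters and was not tested as a binding site, and a lack of match does not show that a box is missing. Because the X-box-like letters were chosen after these promoters were read, the shares of windows do not measure how specific the letters are.

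Cd74 was the most widely present member, with 17 of 20 Lyz2-high cells at 1 FPKM or more (85.0%, exact Clopper-Pearson 95% interval 62.1 to 96.8). The I-A chains followed, H2-Ab1 in 15 of 20 cells (75%, 50.9 to 91.3) and H2-Aa in 13 of 20 (65.0%, 40.8 to 84.6). H2-DMa and H2-DMb1 were each present in 10 cells, H2-Eb1 in 9, Ciita in 5, H2-DMb2 in 3 and H2-Oa in 1. The intervals of neighbours in this order overlap. In the other 11 cells H2-DMb2 was present in 11, Cd74 in 5, H2-Ab1 in 5, and H2-Aa, H2-Eb1, H2-DMa, H2-DMb1 and Ciita in 1 each, whereas H2-Oa was in 0 of 11. A Lyz2-high cell held 4.15 ± 2.43 members (SD over cells, n = 20) and one of the other cells held 2.36 ± 1.75 (n = 11). For scale, a gene of the matrices that was seen in at least 1 of the 20 Lyz2-high cells was present in a median of 3 of them.

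**Figure D1:**
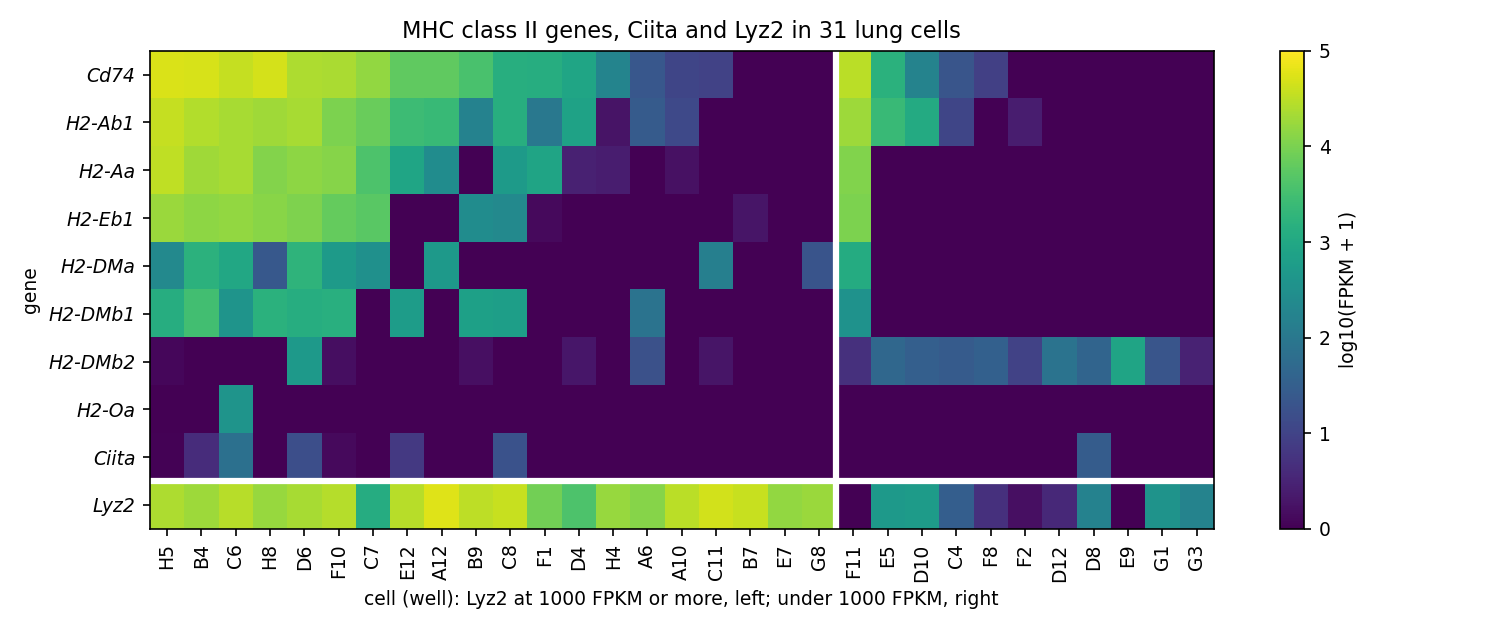
The colour gives log10(FPKM + 1) of the 9 members and Lyz2 (rows) in each of the 31 cells (columns, named by well), with the 20 cells at 1000 FPKM of Lyz2 or more left of the white line and the 11 under it on the right. The 4 upper rows are bright together in 7 cells on the left and in F11 on the right, and H2-DMb2 fills the right block, where the other members are mostly dark.

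H2-Aa, H2-Ab1, H2-Eb1 and Cd74, the I-A chains, the I-E beta chain and the invariant chain, were present together in 8 of 20 Lyz2-high cells (40.0%, exact interval 19.1 to 63.9) and in 9 of 31 cells (29.03%, 14.2 to 48.0). The cells were H5, B4, C6, H8, D6, F10, C7 and C8, and F11 among the cells under the Lyz2 limit. Of the other Lyz2-high cells, 5 held 3 of these 4 genes, 3 held 2, 1 held 1 and 3 held none.

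The level of the invariant chain Cd74 ran from 0 to 51594 FPKM over the 20 Lyz2-high cells, with a median of 2522 FPKM. It was highest in 7 cells, H5 (51594), B4 (49657), H8 (48027), C6 (36971), D6 (23857), F10 (23525) and C7 (15308). The next cell down was E12 at 6036 FPKM, and the remaining 13 cells lay at or under that level. In B7, E7 and G8 Cd74 was listed at 0.

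H2-Ab1, the I-A beta chain, had its highest level in the same cell, with 37160 FPKM in H5 and a median of 1054 FPKM over the 20. H2-Aa, the I-A alpha chain, reached 33325 FPKM in H5 and had a median of 401 FPKM. In the 7 cells named for Cd74, H2-Aa was at 4071 FPKM or more and H2-Ab1 at 7229 FPKM or more. The highest other Lyz2-high cell was E12 for both chains, with 850 FPKM of H2-Aa and 2731 FPKM of H2-Ab1. H2-Eb1, the I-E beta chain, was likewise at 5374 to 17638 FPKM in those 7 cells. Outside them it was at 227 FPKM in C8 and 266 FPKM in B9, and at or under 0.96 FPKM in the remaining 11 Lyz2-high cells. The B9 library thus held H2-Eb1 and Cd74 (3682 FPKM) with H2-Aa listed at 0 and H2-Ab1 at 164 FPKM.

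In all 9 cells with these 4 genes, Cd74 had the highest level of the 4. H2-Eb1 had the lowest level in 7 of the 9 cells, and H2-Ab1 was above H2-Aa in 7 of the 9. The median levels over these 9 cells were 31046 FPKM for Cd74, 18944 FPKM for H2-Ab1, 12594 FPKM for H2-Aa and 10612 FPKM for H2-Eb1. Their ranges over cells overlap widely, from 1361 to 51594 FPKM for Cd74 and from 227 to 17638 FPKM for H2-Eb1, so the order is one within cells.

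No Lyz2-high cell held H2-Ab1, H2-Aa or H2-Eb1 without Cd74, where a count of 0 in 20 cells leaves room for a share of 15%. Cd74 without H2-Ab1 was seen in 2 of the 20 cells, H4 and C11. Over the 16 Lyz2-high cells with either I-A chain, the log2 ratio of H2-Aa to H2-Ab1 (each FPKM + 1) had a median of -0.74 with an SD of 2.90 over cells, a spread wider than the median. H2-Aa was below H2-Ab1 in 12 of these cells and above it in 4. The extremes were D4, with 1.82 FPKM of H2-Aa and 749 FPKM of H2-Ab1, and F1, with 823 FPKM of H2-Aa and 100 FPKM of H2-Ab1.

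The levels of the 4 genes followed each other over the 20 Lyz2-high cells. The 6 pairwise Spearman correlations had a median of 0.865 and ran from 0.773 (H2-Aa with H2-Eb1) to 0.980 (H2-Ab1 with Cd74). Within the 8 Lyz2-high cells that held all 4 genes the median was 0.905 (0.810 to 0.929). In these 8 cells H5 was the highest, C7 the next to lowest and C8 the lowest for each of the 4 genes. The order of the cells between them differed from gene to gene. The part of presence against absence in the correlations over the 20 cells was not tested. These correlations are descriptions over cells of 1 sample, which differ in depth and tie at 0. The labels name no run for the cells.

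**Figure D2:**
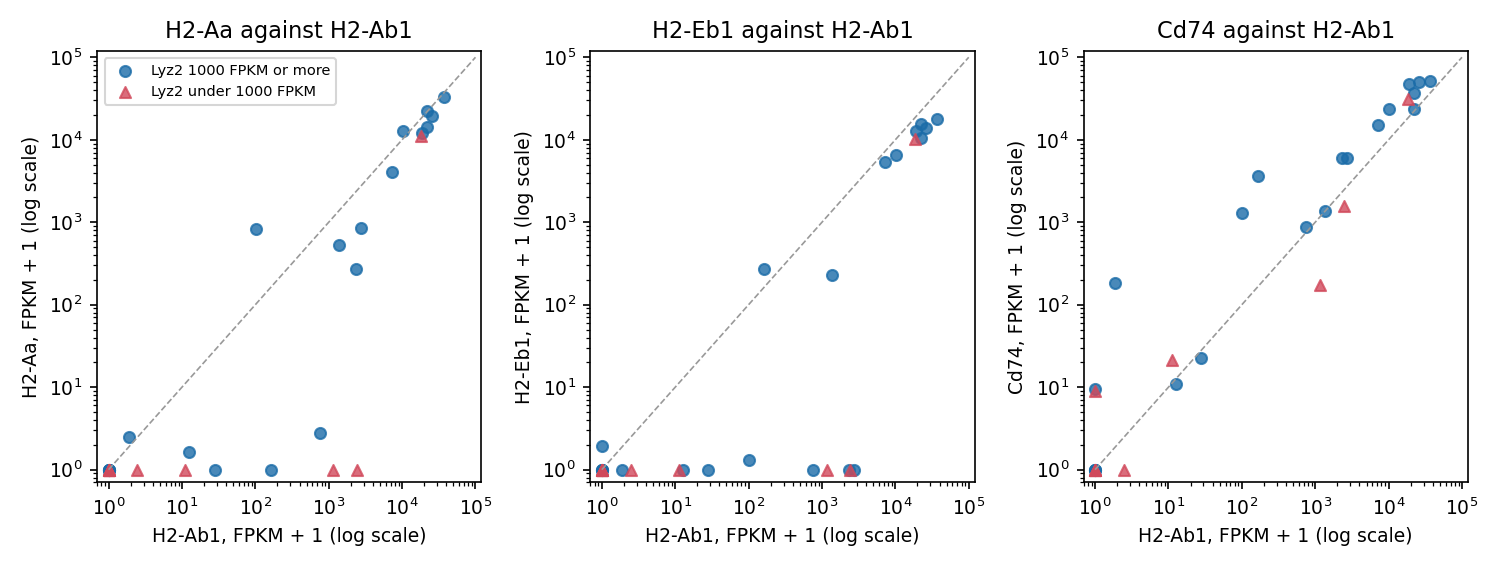
Each panel plots 1 class II gene (y axis) against H2-Ab1 (x axis), both in FPKM + 1 on log scales, for the 20 cells with Lyz2 at 1000 FPKM or more (circles) and the 11 under it (triangles), with the dashed line marking equal levels. Most points with both genes lie just under the line for H2-Aa and H2-Eb1 and above it for Cd74, and points on the lower axis edge hold H2-Ab1 without the other gene.

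The class II genes took a large part of some libraries. The 9 members held 14.01% of all counts in H5 (Wilson 95% interval 13.98 to 14.05), 11.8% in B4, 10.1% in C6, 9.62% in H8, 7.53% in D6, 5.58% in F10 and 3.32% in C7. The median over the 20 Lyz2-high cells was 0.471%, and over the other 11 cells it was 0.00908%. Over the Lyz2-high cells, the mean log2(FPKM + 1) of H2-Aa, H2-Ab1, H2-Eb1 and Cd74, called the class II mean here, had a Spearman correlation of 0.15 with total counts, 0.10 with the number of genes at 1 FPKM or more and -0.02 with Lyz2 (n = 20). Its correlation with the share of counts on protein-coding genes was 0.53, and the part of that share in the result was not tested.

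The H2-DM chains load the peptide. In the 9 cells with H2-Aa, H2-Ab1, H2-Eb1 and Cd74 together, their median levels were 524 FPKM for H2-DMa and 1328 FPKM for H2-DMb1, below the medians of the 4 genes in those cells. H2-DMa ran from 0 to 1786 FPKM in the Lyz2-high cells with a median of 9.43 FPKM. It was highest in D6 (1786), B4 (1644) and C6 (978). H2-DMb1 ran from 0 to 3039 FPKM with a median of 39.6 FPKM, and was highest in B4 (3039), H8 (1553) and F10 (1433). Either chain was present in 14 of 20 Lyz2-high cells and both in 6. Of the 9 cells with H2-Aa, H2-Ab1, H2-Eb1 and Cd74 together, 7 held both H2-DM chains and 9 held at least 1. C7 held H2-DMa at 321 FPKM with H2-DMb1 at 0, and C8 held H2-DMb1 at 645 FPKM with H2-DMa at 0. A12 (506 FPKM), C11 (145) and G8 (18.9) held H2-DMa, and E12, B9 and A6 held H2-DMb1, each without the other chain.

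H2-DMb2, the second H2-DM beta gene, had a different distribution from the other members. In the 21 libraries with 80% or more of their counts on protein-coding genes it was present in 4, at 475 FPKM in D6, 16.7 in A6, 3.84 in F11 and 1 in D4. In the 10 libraries under that share it was present in 10, at 2.05 to 818 FPKM (median 32.0). D6 held 884 expected counts of it, and the 10 libraries held 1.54 to 120 each. An expected count that is not whole is one that the counting program divided between genes. Of the 18 nonzero H2-DMb2 counts, 16 were not whole to within 0.005 (88.9%), against 4 of 11 for H2-DMb1 and 42.3% for all genes, and none for the other 7 members. In the GENCODE M21 transcripts H2-DMb1 and H2-DMb2 share 22.7% and 21.2% of their 50-base windows, so the split of reads between them is uncertain. H2-DMb1 was listed at 0 in all 10 of those libraries, and the part of the shared sequence in their H2-DMb2 values was not tested.

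H2-Oa, a chain of the inhibitor H2-O, was present in 1 cell of 31, at 380 FPKM (364 counts) in C6. Its partner H2-Ob was present in 1 other cell, at 187 FPKM in H5, so the pair was seen together in none of the 31 cells, where a count of 0 leaves room for a share of 9.68%. H2-Eb2 and H2-Ea-ps, the other class II rows, were listed at 0 in 31 of 31 cells. B6 mice carry the H2b haplotype, whose H2-Ea gene lacks its promoter, and H2-Eb1 was nonetheless among the members with the highest levels.

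Ciita, the co-activator, was measured at far lower levels than its target genes. It was present in 6 of 31 cells, at 67.7 FPKM in C6 (362 counts), 26.9 in D8 (40 counts), 17 in C8 (45), 14.6 in D6 (145), 5.71 in E12 (24) and 3.34 in B4 (13). Of these cells 5 were Lyz2-high (25% of 20, exact interval 8.66 to 49.1), and those 5 held both Cd74 and H2-Ab1. D8, the other cell, held none of H2-Aa, H2-Ab1, H2-Eb1 and Cd74 at 1 FPKM, and 46.1% of its counts lay on protein-coding genes.

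Cells with high class II were found without detected Ciita. Of the 9 cells with H2-Aa, H2-Ab1, H2-Eb1 and Cd74 together, 4 held Ciita at 1 FPKM or more. H5, with the highest class II levels of the 31, had 1 Ciita count (0.05 FPKM), and F10 had 3 counts (0.32 FPKM). H8, C7 and F11 had 0 counts, where 3 counts, the limit that a count of 0 allows, would be 0.230, 0.331 and 0.542 FPKM. Ciita was thus under 1 FPKM in H5, F10, H8, C7 and F11, which does not show that it was absent. H8, C7 and F11 had 2568955, 1786722 and 1091288 expected counts in all. C8, with 521492, held 45 Ciita counts. The part of depth in these Ciita values was not tested.

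**Figure D3:**
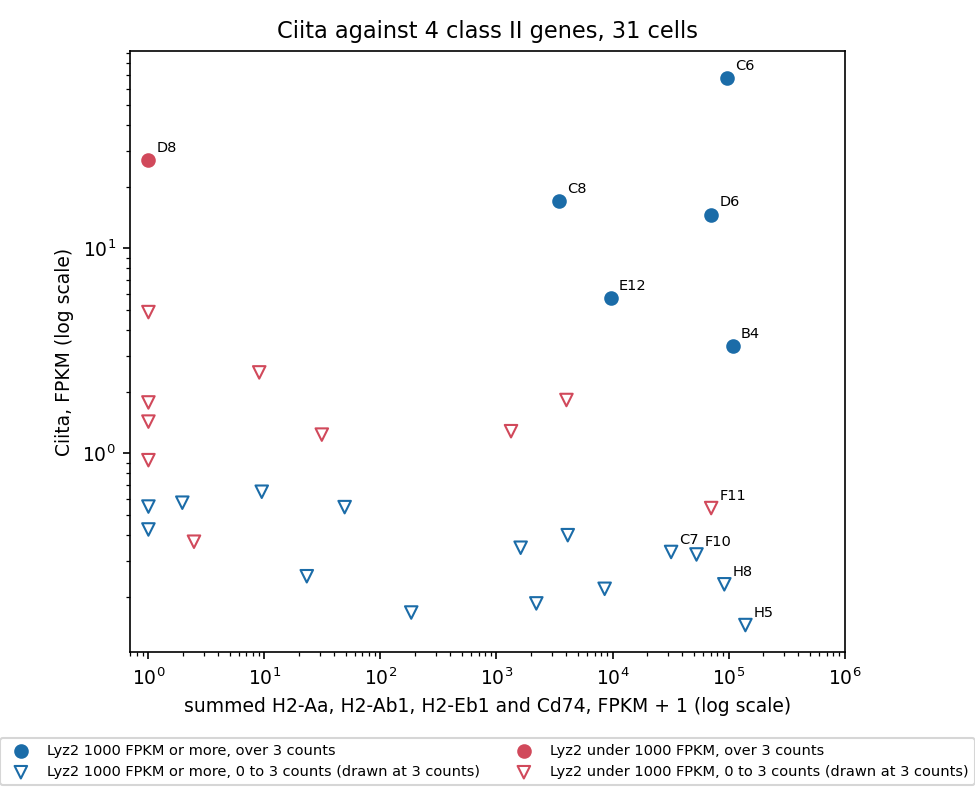
Ciita in FPKM (y axis, log scale) is plotted against the summed FPKM + 1 of H2-Aa, H2-Ab1, H2-Eb1 and Cd74 (x axis, log scale) for all 31 cells, blue for Lyz2 at 1000 FPKM or more and red for Lyz2 under it. Filled circles hold more than 3 Ciita counts, and open triangles hold 0 to 3 counts and are drawn at the level of 3 counts: H5, H8, F10, C7 and F11 lie at the lower right as triangles, and D8 at the upper left holds Ciita without the other genes.

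Apart from the 4 genes of the mean, every gene present in at least 5 of the 20 Lyz2-high cells was ranked by its Spearman correlation with the class II mean, 3690 genes in all. The median correlation was -0.03. A correlation of 0.5 or more was found for 100 genes, 2.71% of those ranked, and one of -0.5 or less for 147 genes, 3.98%. Of the 5 members outside the mean, 3 were ranked: H2-DMb1 stood at rank 2 of the 3690 with a correlation of 0.77, Ciita at rank 24 with 0.67 and H2-DMa at rank 32 with 0.65. H2-DMb2 and H2-Oa were in too few cells to be ranked, with correlations of 0.04 and 0.30. The 3 ranked members followed the single genes of the mean less closely within the 8 Lyz2-high cells that held all 4. Ciita had -0.19 to 0.20 with them there, against 0.56 to 0.70 over the 20 cells. For H2-DMb1 it was 0.17 to 0.50 against 0.63 to 0.77, and for H2-DMa 0.21 to 0.50 against 0.62 to 0.67. The part of presence against absence in their ranks was not tested.

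The class II genes H2-Oa to H2-Eb1 lie in 224335 bases of chromosome 17 (chr17:34092340-34316674, GENCODE M21 on GRCm38), interleaved with genes of the class I pathway. H2-Aa is on the minus strand (chr17:34282744-34287823) and H2-Ab1 (chr17:34257689-34269419) and H2-Eb1 (chr17:34305867-34316674) are on the plus strand. Cd74 is on chromosome 18 (chr18:60803848-60812652) and Ciita on chromosome 16 (chr16:10480059-10528418). Between H2-Oa and H2-Ab1 lie H2-DMa (chr17:34119541-34139101), H2-DMb2 (chr17:34143307-34151555) and H2-DMb1 (chr17:34153072-34160230), all on the plus strand. Of the other genes in the stretch, Psmb8, an immunoproteasome subunit present in 14 of 20 Lyz2-high cells, had a correlation of 0.16 with the class II mean, and Psmb9, another such subunit, had 0.26. Brd2, a chromatin reader in the same stretch, had -0.33. Tap1, a chain of the class I peptide transporter, was present in 3 of the 20 cells.

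Of the 9 genes that process antigen for class II, 5 were present in 19 or 20 of the Lyz2-high cells, Lgmn and Ifi30 in 14 each, Ctsd in 6 and Ctsl in 5. None of the 9 reached a correlation of 0.5 or of -0.5 with the class II mean (median 0.17). Of all ranked genes 2.71% reached 0.5 and 3.98% reached -0.5, so a count of 0 in 9 genes is near those shares. Ctss, the cathepsin that trims the invariant chain, was present in 20 of 20 Lyz2-high cells with a median of 2273 FPKM and had a correlation of 0.44, which was 0.52 without C7 and 0.50 in the cells with Lyz2 at 5000 FPKM or more (n = 18). Cst3, a cathepsin inhibitor, was present in 20 of 20 at a median of 5912 FPKM (correlation 0.46), and Ctsb, a lysosomal protease, in 20 of 20 at 315 FPKM (-0.14). Ctsh and Ctsz, also lysosomal proteases, were each present in 19 of 20. B7, E7 and G8, with Cd74 at 0, were among the cells that held Ctss and Ctsb.

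Of the 18 genes that control Ciita or bind the X and Y boxes, 9 were ranked, and 0 of the 9 reached a correlation of 0.5 or of -0.5 (median 0.12). This count too is near the shares of all ranked genes, 2.71% at 0.5 or more and 3.98% at -0.5 or less. Spi1, the transcription factor PU.1, was present in 19 of 20 Lyz2-high cells at a median of 439 FPKM (correlation -0.08). Ifngr1, a chain of the interferon gamma receptor, was present in 16 of 20 (-0.45), Jak1, a kinase on that receptor, in 12 (0.00) and Irf8, a myeloid interferon regulatory factor, in 8 (0.42). In the cells with Lyz2 at 5000 FPKM or more the correlation of Irf8 was 0.50, at the limit. Irf4 was present in none of the 20, where a count of 0 leaves room for a share of 15%. The X-box factors were rarely detected, Rfx5 in 1 of the 20 cells and Rfxap in 1. Rfxank, the remaining RFX subunit, was present in 2 of the 20 Lyz2-high cells and in 9 of the other 11. Those 9 were all among the 10 libraries with 32.8% to 61.6% of counts on protein-coding genes. They held Rfxank at 2.35 to 25.45 FPKM, and F11 held it at 0.26 FPKM. The part of the low coding share in these Rfxank values was not tested.

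Of the 10 genes of class II turnover and co-stimulation, 7 were ranked, and 2 of the 7 reached 0.5, against 2.71% of all ranked genes. Cd86, a ligand of CD28 on T cells, was present in 14 of 20 Lyz2-high cells and in 0 of the other 11, with a correlation of 0.73. Its level was highest in H8 (1265 FPKM), D6 (677) and E12 (351), and H5, the cell with the most class II, held 10.8 FPKM. Cd83, which protects class II and CD86 from the ubiquitin ligase March1, was present in 15 of 20 (correlation 0.53, and 0.48 without C7) and highest in H8, at 5133 FPKM. March1 was present in 3 of the 20 cells, Cd80 in 1 and March8 in 0. Il10rb and Il10ra, the chains of the interleukin 10 receptor, were present in 13 and 11 cells and had correlations of -0.21 and 0.26.

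Among the 10 genes most like the class II mean in pattern over the 20 Lyz2-high cells, members aside, were Ly86 (0.80), Rbpj (0.77), Apoe (0.75), Mt1 (0.74), Cd86 (0.73), Gapvd1 (0.72), Gm10123 (0.71), Ddost (0.71) and Tmem176b (0.71). Ly86 encodes MD-1, the partner of the Toll-like receptor homologue RP105, and was present in 13 of 20 cells at up to 1732 FPKM. Rbpj is the DNA-binding factor of Notch signalling and reached 223 FPKM, in H8. Apoe, the lipid carrier apolipoprotein E, ran up to 29000 FPKM in F1. Mt1, a metallothionein that binds metal ions, was present in 10 of the 20 cells. The 5 genes at the other end were Gm6450 (-0.81), Tmsb10 (-0.75), Lars2 (-0.74), Gm9844 (-0.74) and Dock2 (-0.73). Tmsb10, an actin-binding thymosin, was present in 18 of the 20 cells at a median of 3672 FPKM.

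**Figure D4:**
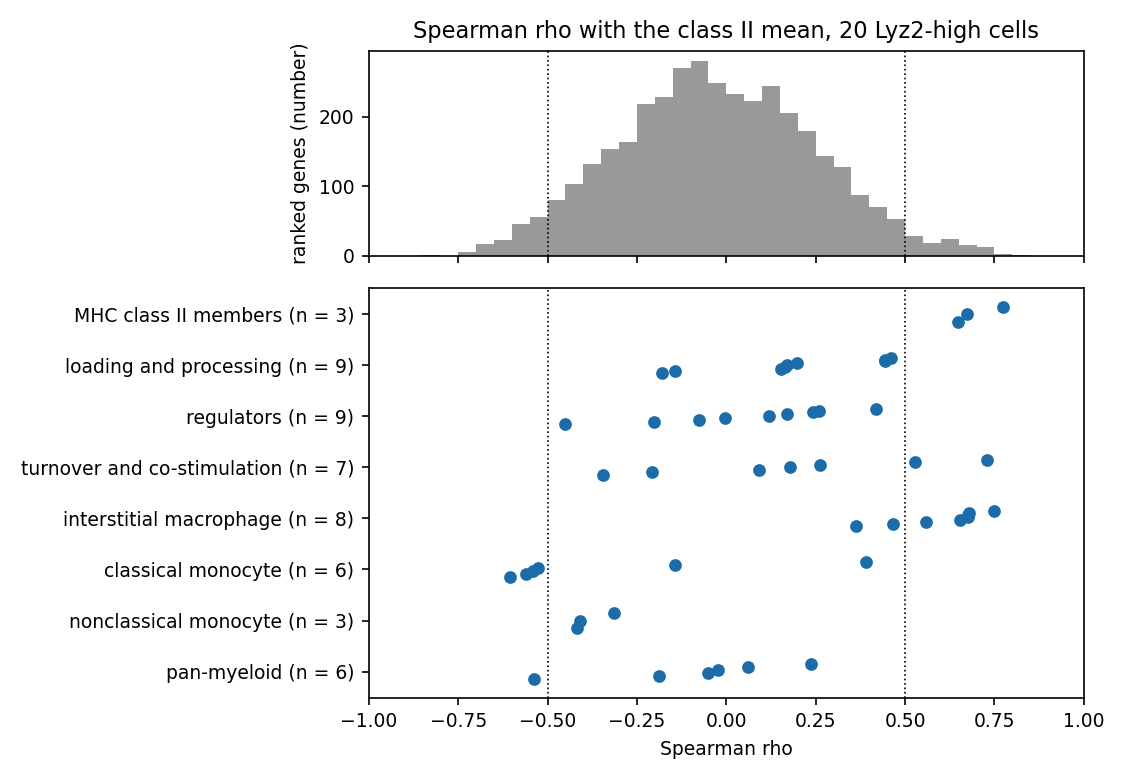
The upper panel counts the 3690 ranked genes (y axis) by their Spearman correlation with the class II mean over 20 Lyz2-high cells (x axis), and the lower panel places the ranked genes of each list on the same axis, with dotted lines at -0.5 and 0.5. The 3 ranked members outside the mean (H2-DMb1, Ciita and H2-DMa) and 6 of 8 interstitial macrophage markers lie right of 0.5, and 4 of 6 classical monocyte markers lie left of -0.5.

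Markers of 2 cell types moved with the class II mean in the Lyz2-high cells. Of 8 interstitial macrophage markers, 6 had a correlation of 0.5 or more, against 2.71% of all ranked genes. These were Apoe 0.75, C1qc 0.68, Mrc1 0.68, C1qb 0.67, C1qa 0.65 and Pf4 0.56. C1qa, C1qb and Mrc1 were present in 6 and Pf4 in 5 of the 20 cells, with H5, B4, C6, H8 and F1 in each case. Their correlations are thus not separate observations. Apart from F1, the Lyz2-high cells with these 4 genes all had H2-Aa at 1000 FPKM or more. These genes thus passed the limit of 5 cells mostly through cells with high class II, where a high correlation was nearly fixed. Both marker lists were chosen with earlier results of these data known, so their shares are descriptions only. The C1q genes encode the first complement component, Mrc1 the mannose receptor and Pf4 a platelet-type chemokine. Of 6 classical monocyte markers, 4 had -0.5 or less, against 3.98% of all ranked genes. Fn1 (fibronectin) at -0.61, Plac8 at -0.56 and Ly6c2 (the monocyte surface antigen Ly6C) at -0.54 were among them. Ccr2, the chemokine receptor of classical monocytes, went against that list with 0.39 and was present in 16 of the 20 cells. The summed level of the interstitial list ran from 0 to 64249 FPKM in the Lyz2-high cells, and that of the classical list from 2.02 to 16335 FPKM. The part of cell identity in the class II levels was not tested.

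Cell by cell, H2-Aa and these markers overlapped in part. H2-Aa was at 1000 FPKM or more in 7 of the 20 Lyz2-high cells and Ly6c2 was present in 10, and no cell held both at these levels. C8, which held the 4 class II genes at lower levels, was the cell with them that had Ly6c2, at 2050 FPKM. C1qb was present in 6 cells, of which 5 (H5, B4, C6, H8 and C7) had H2-Aa at 1000 FPKM or more. F1 held C1qb at 4662 FPKM with H2-Aa at 823 FPKM and H2-Eb1 at 0.32 FPKM. D6 and F10 held H2-Aa at 14316 and 12594 FPKM with C1qb at 0 and 0.60 FPKM. High class II was thus measured both with and without the C1q genes.

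**Figure D5:**
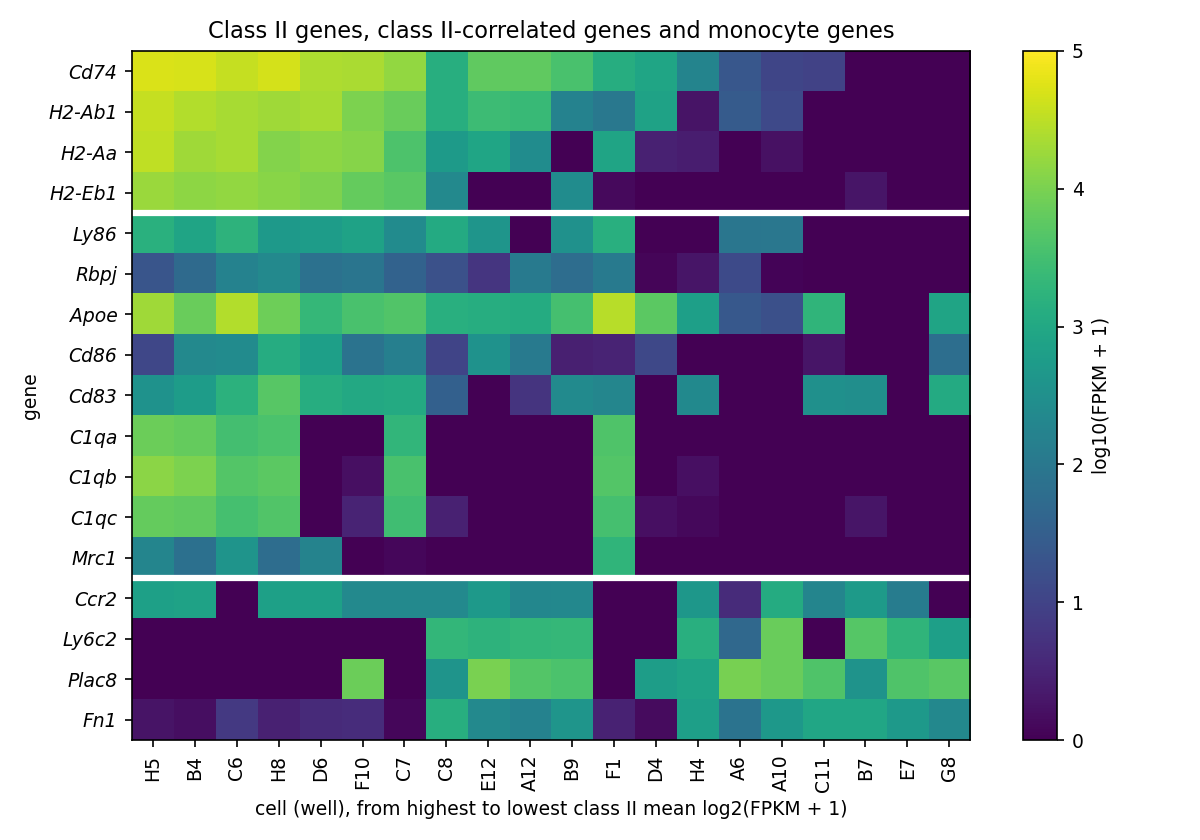
The colour gives log10(FPKM + 1) for the class II genes (top block), genes with a positive correlation with their mean (middle block) and classical monocyte markers (bottom block) in the 20 Lyz2-high cells, ordered from the highest to the lowest class II mean. C1qa, C1qb and C1qc are dark in D6 and F10 and bright in F1, and Ly6c2 is dark in the first 7 cells.

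Most markers of other cells that carry class II were low. Of 10 dendritic cell markers, 7 were present in no Lyz2-high cell, among them Zbtb46, Clec9a, Cd209a and Ccr7, and the summed level of the list ran from 0 to 1025 FPKM with a median of 0.08 FPKM. Flt3, the dendritic cell growth factor receptor, was present in 1 of them, B9, at 39.1 FPKM, and Itgax (CD11c) in 3. In the other 11 cells the sum of that list ran from 0.68 to 808 FPKM, with a median of 17.6 FPKM. The highest sum was that of D12, with Kit at 803 FPKM. Xcr1 was present in 9 of the 11 cells and in 1 of the 20. Those 9 were all among the libraries with under 80% of counts on protein-coding genes. The part of the low coding share in these values was not tested. Of 7 B cell markers, 4 were in no Lyz2-high cell, with Cd79a and Pax5 at 0, and their sum ran from 0 to 1045 FPKM in the Lyz2-high cells and from 0 to 653 FPKM in the others. The 1 ranked gene of that list, Ighm, the heavy chain of IgM, was present in 7 of the 20 cells with a correlation of 0.68, and 6 of those 7 had H2-Aa at 1000 FPKM or more. C7, 1 of those 6 with Ighm at 193 FPKM, was the only Lyz2-high cell with Cd79b (97.5 FPKM) or Ms4a1 (54.6 FPKM). Ms4a1 was also present in 10 of the other 11 cells, at up to 30.9 FPKM, and was at 0 in F11. All 6 alveolar type 2 markers and all 5 T and NK cell markers were present in no Lyz2-high cell. Siglecf, Marco, Car4 and Pparg of the alveolar macrophage list were at 0 in 31 of 31 cells, and Chil3 of that list had a correlation of -0.57. None of the 3 ranked nonclassical monocyte markers reached -0.5, and Tyrobp (-0.54) was the 1 of 6 pan-myeloid genes that did, against 3.98% of all ranked genes.

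F11 was the cell with high class II and no Lyz2. It held 31046 FPKM of Cd74, 18318 of H2-Ab1, 11206 of H2-Aa and 10269 of H2-Eb1, all within the range of the 8 Lyz2-high cells that held the 4 genes. H2-DMa was at 1210 FPKM and H2-DMb1 at 358 FPKM. Lyz2, Apoe, Cd86 and Ciita were at 0 and Csf1r, the gene whose reporter was sorted for, was at 0.99 FPKM. F11 had Ly86 at 2893 FPKM, Cd83 at 2785 FPKM, Cst3 at 9907 FPKM and Itgax at 159 FPKM, with 0 FPKM for Flt3, Zbtb46, Clec9a, Cd209a and Ccr7. All 7 B cell markers were at 0 there. Of the genes behind the sort label of F11, Ptprc (CD45) was at 319 FPKM and Adgre1 (F4/80) at 0 FPKM. Adgre1 was also at 0 in D6, E12, H4 and B7 of the Lyz2-high cells, and Csf1r was at 1.71 FPKM in A12 and 1.85 FPKM in A10. Fcer1g, a myeloid Fc receptor subunit, was at 2364 FPKM.

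Of the other 10 cells under the Lyz2 limit, 4 held Cd74 at 1 FPKM or more, E5 (1575 FPKM), D10 (173), C4 (20.1) and F8 (8.02). H2-Ab1 was present in E5 (2432 FPKM), D10 (1160), C4 (10.1) and F2 (1.47). H2-Aa, H2-Eb1, H2-DMa and H2-DMb1 were listed at 0 in all 10. E5 and D10 are the cells nearest to the Lyz2 limit from below, and their libraries had 61.6% and 43.6% of counts on protein-coding genes.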

How the data were processed

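The data are the expression matrices of 31 single lung cells in 1 group. The authors deposited RSEM expected counts, which are estimated and can be fractional, and FPKM, per the file headers and the labels. CASAVA 1.8, Trimmomatic, RSEM and build GRCm38 are named in the submitters' processing notes; for the aligner, annotation release, strand setting and cell filter, the sources used here give nothing. Columns were assigned to samples by well, and 44 columns that match no sample were not used. Of 47069 gene identifiers, 46488 had a symbol. No doublet caller was run on so few cells.

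A gene was present at 1 FPKM or more. Correlations are Spearman's over cells, ranked for genes present in at least 25% of the Lyz2-high cells, and log2 ratios have a pseudocount of 1. Shares of cells have exact Clopper-Pearson 95% intervals. No animal is named and 1 group exists, so no test was possible. The ranking of genes by correlation was tested on simulated counts, and the other computations were not. All used Python 3.11.15, numpy 2.4.6, pandas 2.3.3 and scipy 1.17.1. The members, gene lists, marker lists and processing settings were chosen with earlier results of these data known. Named were all members, the 4 genes of each pathway list present in most Lyz2-high cells and those present in none (ties at the last place are given in part), and the 10 genes with the highest and 5 with the lowest correlation, of which 1 of the 10 is not reported here. Ctsz, Rfx5, Rfxap, Rfxank, March1, Cd80, neighbours of the locus, single markers and single cells were named after their values were seen. The depth per cell was 120835 to 4059833 expected counts, and without molecular identifiers intervals and limits cover counting error only.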

Additional observations from a re-analysis of the deposited data

How the results depend on the processing

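No paired analysis was possible because the 31 cells form 1 group. Of the alternatives tried on the main values, 53 left the value within its spread or its count within 1.5 times, and 3 moved a count of correlated genes. With genes present in 1 cell or more, 167 of 10814 genes reached 0.5, and with genes present in at least 50% of the cells 42 of 1428 reached 0.5 and 92 reached -0.5, against 100 and 147 of 3690 in the report; the number of genes ranked differs by construction. At 50 FPKM or more, H2-DMb2 was present in 9.68% of all cells and Ciita in 5% of Lyz2-high cells and 3.23% of all cells. Ciita's correlation ran from 0.45 to 0.71 and that of Cd83 from 0.48 to 0.57 over the settings that ranked them, that of Ctss from 0.43 to 0.52 and that of Irf8 from 0.38 to 0.50, so these 4 crossed 0.5 in some. Of the 10 genes with the highest correlation, 5 to 10 stayed among the first 10 and 8 to 10 stayed at 0.5 or more. Leaving out C7, using libraries with at least 80% coding counts and restricting to cells with all 4 genes were chosen after seeing the data. Thinning every cell to 120829 counts was among the alternatives. With 20 cells of 1 sample, none of these values measures the spread between animals.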
